A study of Scophthalmus maximus with 8 samples.

Results

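Turbot (Scophthalmus maximus) at the climax of metamorphosis, 23 days post hatching (dph), were compared with post-metamorphic turbot at 37 dph, to describe the genes whose transcripts were gained and lost as metamorphosis was completed. The comparison rests on 4 of the 8 libraries of the series, the 2 labelled 23dph and the 2 labelled 37dph, and each library was made from 1 fish. At both stages the body was sampled without its hind part behind the cloaca, so the cut was the same. The paper took tissue from each fish up to a set weight, and does not say which part of the cut body it was. The other 4 libraries, from whole animals at 3 days post fertilization (dpf) and from equally cut bodies at 15 dph, are used here for the spread between replicates and to show where the same genes stood earlier. The labels give no strain, sex or treatment for any group.

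Flatfish hatch upright and swim in open water, and after metamorphosis they lie on the seabed on their blind side. Thyroid hormone drives the change, one eye crosses the head, and muscle, skin, blood and gut take on their juvenile form. A bulk library of tissue from the cut body mixes tissues. Fewer cells of a type, less RNA per cell and a different piece of the body cannot be told apart in any value below.

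Genes carry only Ensembl identifiers in the count tables, and 0 of the 21263 identifiers occur in the table of 26628 turbot gene names used here, which belongs to another assembly. The labelled tissue could therefore not be checked against marker genes, and genes are described by their level, their fold change and their earlier course. Counts on genes in the 4 libraries ranged from 19077018 to 24633023. The biological coefficient of variation between replicates, which measures how far the level of a typical gene differs between fish beyond counting error, was 10.1% at 23 dph and 19.7% at 37 dph.

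More genes rose than fell between climax and 37 dph when most genes were taken as unchanged, and more fell than rose when libraries were scaled by their totals. A gene was counted as gained at 37 dph when it was at least 1 log2 unit higher than at 23 dph with an adjusted p-value (Benjamini-Hochberg) below 0.05 by the quasi-likelihood test of edgeR, and as lost when it was lower by that much. Of 18987 genes tested, 1456 were gained (7.67% of the genes tested) and 828 were lost (4.36%). Levels are given as CPM, counts brought to a common library size, with scaling factors from TMM, which sets the bulk of genes equal between libraries. When libraries were scaled by their total gene counts alone, an alternative chosen after seeing the data, 943 genes were gained and 1587 were lost. Gains were then 37.3% of the changed genes instead of 63.7%, and the median change over the genes tested went from -0.01 to -0.23 on the log2 scale. All 943 were among the 1456, and all 828 lost genes were still called lost. The split between gains and losses is therefore relative to the scaling. Neither list, gained or lost, was kept whole when any 1 library was left out. Without replicate 2 of 23 dph 922 genes were gained, of which 865 were among the 1456.

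**Figure D1:**
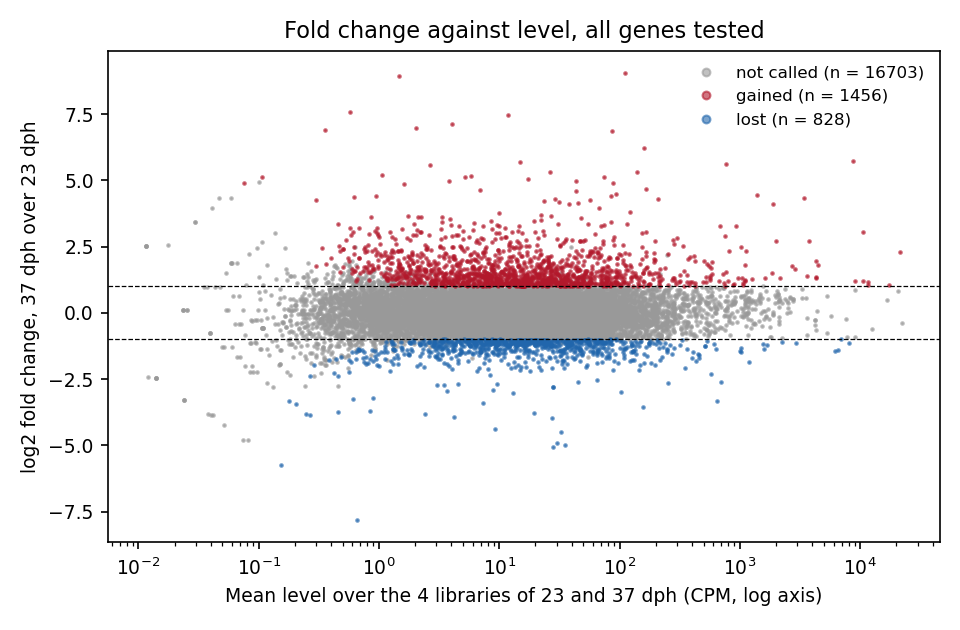
The log2 fold change of 37 dph over 23 dph (vertical axis) is plotted for each gene tested against its mean level over the 4 libraries in CPM (horizontal log axis), with dashed lines at 1 and -1. On the TMM scale the quartiles were 1.19 and 1.95 for the 1456 gained genes (red). They were -1.10 and -1.50 for the 828 lost genes (blue). Both groups span the range of levels.

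The median log2 fold change was 1.44 among gained genes and -1.23 among lost genes on the TMM scale. With library totals the medians of the same genes were 1.20 and -1.45, so which group changed more turns with the scaling. Genes at or under the limit of detection were also held at the bound that 3 counts allow. The medians were then 1.44 and -1.23 on the TMM scale. Only 22 gained and 14 lost genes were held there, too few to shift a median by much. Among the gained genes 1111 rose between 2-fold and 4-fold, 237 between 4-fold and 8-fold and 86 by 8-fold or more. Among the lost genes 761 fell between 2-fold and 4-fold, 39 between 4-fold and 8-fold and 14 by 8-fold or more. These classes leave out the 22 gained and 14 lost genes with at most 3 counts in each library of the lower stage.

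Changed genes were found at every level of abundance. Levels here are per gene and not per length. Of the 1409 genes whose mean over the 4 libraries reached 100 CPM, 12.2% were gained and 6.53% were lost. Of the 9667 genes between 10 and 100 CPM, 7.01% were gained and 4.22% were lost. Of the 6493 genes between 1 and 10 CPM, 8.29% were gained and 4.42% were lost. Of the 1418 genes under 1 CPM, 4.80% were gained and 2.89% were lost. On the TMM scale 17186 genes had at least 1 CPM in both libraries of 23 dph, and 17185 genes in both of 37 dph. There were 403 genes at that level at 37 dph and not at 23 dph, and 404 at 23 dph and not at 37 dph. Passing such a limit at 1 stage selects genes by their change, and 201 of the 403 were called gained and 65 of the 404 were called lost. These numbers depend on the scaling and were not remade with library totals.

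The gained genes took a large part of the library at 37 dph. Their summed share of gene counts was 9.66% and 9.94% in replicates 1 and 2 of 23 dph, and 29.4% and 23.8% in replicates 1 and 2 of 37 dph. The stage means were 9.80% ± 0.19 (SD, n = 2) and 26.6% ± 3.97 (SD, n = 2). The lost genes held 10.2% in both replicates of 23 dph, and 3.18% and 3.74% in replicates 1 and 2 of 37 dph. By these calls, gained and lost genes held nearly equal shares at climax, and the gained genes held several times the share of the lost genes afterwards. The size depends on which abundant genes pass the test and on which fish is measured. When the calls were remade with 1 library left out, the gained genes held 17.0% at 37 dph without replicate 1 of 23 dph, 16.5% without replicate 2 of 23 dph, 17.0% without replicate 1 of 37 dph and 35.0% when replicate 2 of that stage was left out. Where a replicate of 37 dph was left out, the share is that of the other replicate alone. By the calls from all libraries the gained genes held 23.8% in replicate 2 and 29.4% in replicate 1. With library totals in place of TMM the gained genes held 16.9% at 37 dph and the lost genes 17.1% at 23 dph. The calls were made on these same libraries, so the direction of both shares is fixed by the choice of genes, and only their size is described. The widest 95% Wilson interval of any such share was 0.020 percentage points to each side, which covers counting error only.

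**Figure D2:**
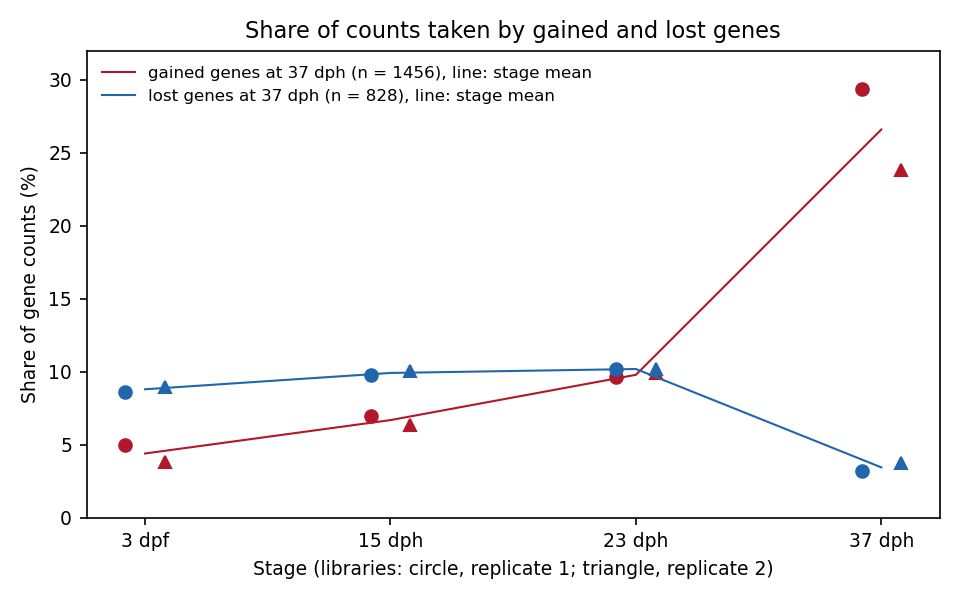
The share of gene counts in percent (vertical axis) is shown for each library (circles, replicate 1, and triangles, replicate 2) by stage, summed over the gained genes (red) and over the lost genes (blue), with lines through the stage means. Both sums lie near 10% at 23 dph, and at 37 dph the gained genes stand at 29.4% and 23.8% and the lost genes at 3.18% and 3.74%.

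A few genes carried most of this. Of the share held by gained genes at 37 dph, 11 genes held more than 50% and the 20 leading genes held 63.9%. The mean share of all gained genes rose by 16.8 percentage points between the stages, of which 65.6% came from 20 genes, and 4.63 points came from 3. Among lost genes, 10 held more than 50% of the group's share at 23 dph, and 20 genes made up 59.9% of the fall. At a mean of at least 0.1% of gene counts there were 38 gained genes at 37 dph and 15 lost genes at 23 dph.

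The whole exchange of counts was measured as the percentage points of gene counts that would have to move between genes to turn one library into another. Between a library of 23 dph and one of 37 dph it ranged from 21.4 to 26.9 points over the 4 pairs. It was 5.03 points between the replicates of 23 dph and 11.1 points between the replicates of 37 dph, so each pair of stages lay farther apart than either pair of replicates. Between 64.8% and 73.3% of the points that rose were in gained genes. Of the points that fell, 26.1% to 30.3% were in lost genes. These parts rest on calls made with TMM on the same libraries. They were not remade with library totals, by which 943 genes were gained and 1587 lost. How many genes held the rest of the fall was not measured. The summed share of genes not called was 80.1% and 79.9% in replicates 1 and 2 of 23 dph. It was 67.4% and 72.4% in replicates 1 and 2 of 37 dph. On the TMM scale the median log2 fold change of these 16703 genes was -0.03. Shares are on the scale of library totals, by which the median over all genes tested was -0.23.

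The counts were concentrated in fewer genes at 37 dph than at climax, a measure that does not use the calls. The most abundant genes that together held 50% of gene counts numbered 299 and 298 in replicates 1 and 2 of 23 dph, and 165 and 228 in replicates 1 and 2 of 37 dph. The 20 most abundant genes of a library held 19.1% and 18.9% in replicates 1 and 2 of 23 dph, and 24.9% and 20.7% in replicates 1 and 2 of 37 dph. Both libraries of 37 dph were more concentrated than both of 23 dph by each measure, and replicate 1 of 37 dph was the more concentrated of its pair. The difference of the means was 3.75 percentage points for the 20 genes and -102 genes for 50% of the counts. The two-sided exact permutation p was 0.333 for each, the smallest that 2 libraries against 2 can give. Without replicate 1 of 37 dph the differences were 1.64 points and -70.5 genes. The libraries of 15 dph were less concentrated still, with 548 and 560 genes for 50% of the counts and 12.7% and 12.8% in the 20 genes, so the counts had already become more concentrated by climax.

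**Figure D3:**
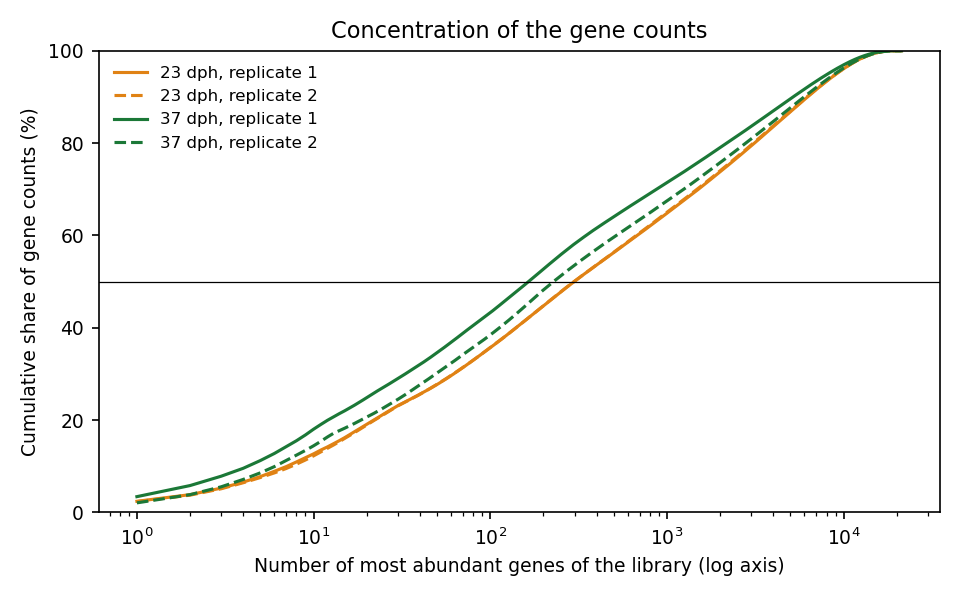
The cumulative share of gene counts in percent (vertical axis) is plotted against the number of most abundant genes (horizontal log axis) for the 2 libraries of 23 dph (orange) and the 2 of 37 dph (green), with a line at 50%. The curves of 23 dph cross the line at 299 and 298 genes and lie almost on each other, and those of 37 dph cross it at 165 and 228 genes.

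The lists of the 20 most abundant genes, ranked by mean share at each stage, had 13 genes in common. Of the 7 genes present only at 37 dph, 6 were gained genes, and of the 7 present only at 23 dph, 4 were lost genes. Entering or leaving the list selects genes by their change, and 12.2% of all genes at 100 CPM or more were gained and 6.53% lost. Of the 20 genes at 37 dph 12 were gained, and of the 20 at climax 6 were.

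ENSSMAG00000032054 had the largest gain in share of all changed genes and was the most abundant gene at 37 dph, up from the 14th place at 23 dph. It stood at 6857 and 7605 CPM in replicates 1 and 2 of 23 dph, and at 46745 and 23763 CPM in replicates 1 and 2 of 37 dph. The stages did not overlap, and replicate 1 of 37 dph stood far above replicate 2. In raw counts its share was 0.645% and 0.714% at 23 dph and 3.42% and 2.07% at 37 dph. The log2 fold change was 2.29 (SE 0.45) with an adjusted p of 0.0050 by edgeR, and it was 1.73 without replicate 1 of 37 dph. Its level had been 3819 and 3197 CPM in replicates 1 and 2 of 15 dph and 2131 and 864 CPM in replicates 1 and 2 of 3 dpf, so it stood higher at each later stage.

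ENSSMAG00000008444 had the largest fold gain among genes with at least 10 CPM at 37 dph. It was counted 5 and 11 times in replicates 1 and 2 of 23 dph, and 4104 and 3287 times in replicates 1 and 2 of 37 dph. In CPM this was 0.24 and 0.61 against 292 and 153. The gene was thus close to the limit of detection at climax and well measured in both fish afterwards. The log2 fold change was 9.05 (SE 0.50) with an adjusted p of 1.0e-05 by edgeR. The change was 8.48 without replicate 1 and 9.82 without replicate 2 of 23 dph. It was not silent earlier, with 51 and 34 counts in replicates 1 and 2 of 3 dpf, and 6 and 7 counts in replicates 1 and 2 of 15 dph.

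ENSSMAG00000007420 had the largest fold loss under the same rule. It stood at 17.9 and 90.4 CPM in replicates 1 and 2 of 23 dph, and at 1.57 and 1.63 CPM in replicates 1 and 2 of 37 dph. The 2 fish at climax were far apart, while those at 37 dph were alike and both lower. The log2 fold change was -5.07 (SE 0.69) with an adjusted p of 8.8e-04 by edgeR, and it was -3.47 without replicate 2 of 23 dph. At 15 dph it stood at 49.98 and 73.5 CPM and at 3 dpf at 3.10 and 2.39 CPM, so its high levels were those of the larval stages 15 and 23 dph.

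Among lost genes with at least 10 CPM at 23 dph and no overlap between the stages, ENSSMAG00000008146 lost the largest share of gene counts. Genes that were not called were not ranked. Its share went from 1.14% and 0.944% in replicates 1 and 2 of 23 dph to 0.321% and 0.493% in those of 37 dph. Its level was 12108 and 10046 CPM at 23 dph and 4384 and 5644 CPM at 37 dph. It moved from the 7th to the 26th place by mean share and remained an abundant gene. The log2 fold change was -1.14 (SE 0.24) with an adjusted p of 0.0066 by edgeR. The call was not kept without replicate 1 of 23 dph (-1.01, with an adjusted p of 0.060 by edgeR) or without replicate 1 of 37 dph, where the change of -0.96 missed the minimum fold. At 15 dph it stood at 5361 and 5132 CPM, within the range of the 2 libraries of 37 dph.

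**Figure D4:**
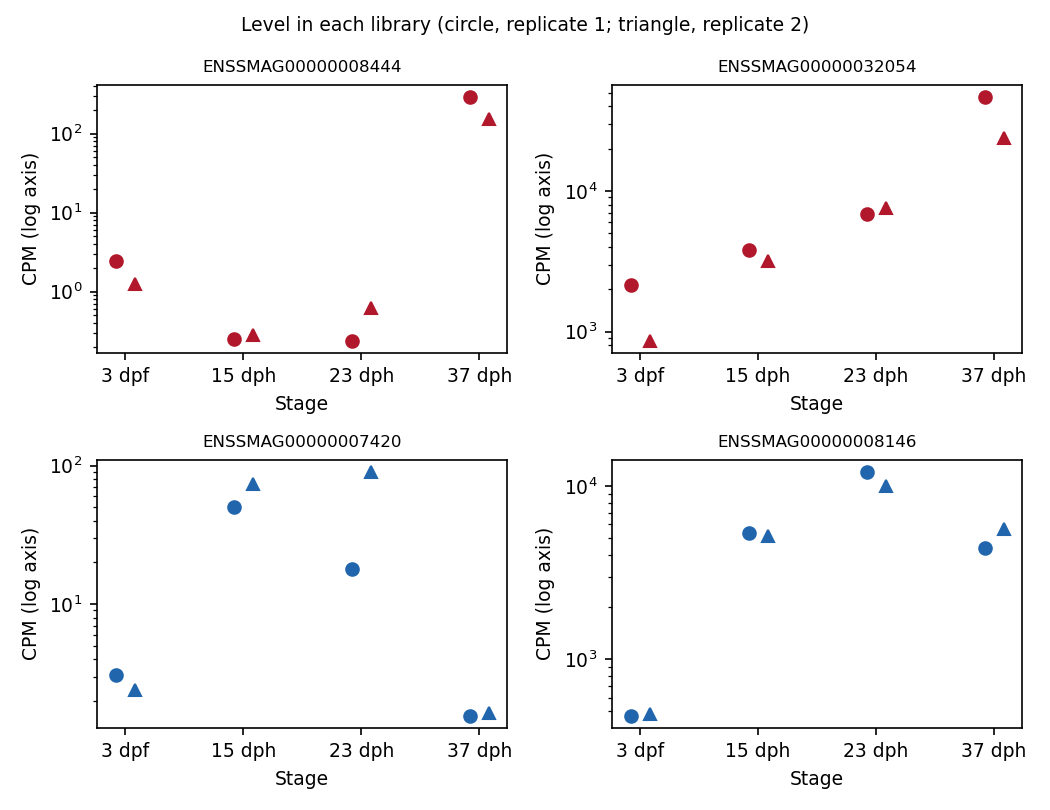
The level of 4 genes in CPM (vertical log axes) is shown in each library by stage, with the 2 genes that rose (top, red) and the 2 that fell (bottom, blue). Both libraries of 37 dph lie above both of 23 dph for ENSSMAG00000008444 (292 and 153 against 0.24 and 0.61 CPM) and ENSSMAG00000032054, and below them for ENSSMAG00000007420 and ENSSMAG00000008146.

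Few genes were switched on or off. Only 22 of the gained genes had at most 3 counts in each library of 23 dph, and 5 of these had 0 in both. Their mean level at 37 dph ranged from 0.15 to 8.10 CPM with a median of 1.04 CPM, so none reached 10 CPM. The limit of 3 counts was set on the lower stage only, and some were near it at 37 dph too. There ENSSMAG00000035341 had 1 and 5 counts and ENSSMAG00000028548 had 4 and 3 counts in replicates 1 and 2. Of these 22 genes, 8 had more than 3 counts in both libraries of 3 dpf and 5 in both of 15 dph. When the calls were remade without 1 library, 9 of the 22 were called without replicate 1 of 23 dph, 12 without replicate 2 of 23 dph, 15 without replicate 1 of 37 dph and 18 when replicate 2 of that stage was left out. Of the lost genes, 14 had at most 3 counts in each library of 37 dph, and 2 of them had 0 in both. Their mean level at 23 dph ranged from 0.31 to 1.56 CPM. All 14 had more than 3 counts in both libraries of 15 dph and 10 had them in both of 3 dpf. The filter on low counts could be passed through 3 dpf or 15 dph alone, which selects for counts at those stages. The lost gene ENSSMAG00000008319 had 7 and 5 counts at 23 dph, 24 and 32 at 15 dph and 354 and 473 at 3 dpf. The gained gene ENSSMAG00000028548 had 10 and 11 counts at 3 dpf. Of these 14, 9 and 4 were called without replicates 1 and 2 of 23 dph, and 5 and 4 without replicates 1 and 2 of 37 dph. At these depths a count of 0 allows up to 3 counts, or 0.14 to 0.21 CPM in the 4 libraries, so genes near it cannot be called absent.

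On the TMM scale the median of the gained genes was lower the earlier the stage. That of the lost genes fell slightly from stage to stage until climax. Single lost genes moved both ways. From 3 dpf to 15 dph 23.1% of them were called higher and 21.6% lower, against 24.4% and 14.3% of all genes tested. The medians were not remade with library totals. The median level of the gained genes was 2.20 and 1.82 CPM in replicates 1 and 2 of 3 dpf, 4.89 and 4.65 CPM in those of 15 dph, 7.10 and 6.78 CPM in those of 23 dph, and 23.4 and 18.5 CPM in those of 37 dph. These medians stood higher at each later stage, with no overlap between the libraries of different stages. Between 23 and 37 dph this is fixed by the choice of genes. A gene could also pass the filter on low counts through 37 dph alone, which selects for low levels at the other stages. The median level of the lost genes was 23.9 and 25.5 CPM at 3 dpf, 22.5 and 23.2 CPM at 15 dph, 21.3 and 21.5 CPM at 23 dph, and 8.19 and 9.12 CPM at 37 dph. Here too the libraries of different stages did not overlap, though the steps until climax were small. Over all genes tested the library medians stayed between 11.8 and 13.3 CPM. In shares of gene counts, gained genes held 4.96% and 3.85% in replicates 1 and 2 of 3 dpf and 7.004% and 6.39% in those of 15 dph, and lost genes held 8.65% and 8.97% at 3 dpf and 9.80% and 10.1% at 15 dph. The libraries of 3 dpf and 15 dph were not compared in the calls, but those of 3 dpf come from whole animals.

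**Figure D5:**
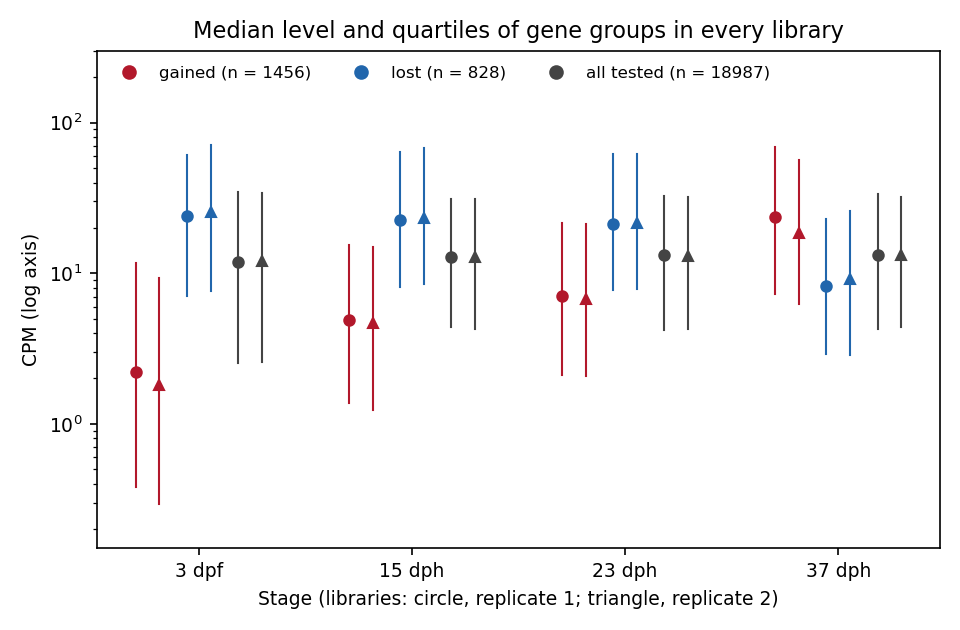
Points give the median level in CPM (vertical log axis) and bars the lower and upper quartiles over the gained genes (red), the lost genes (blue) and all genes tested (grey) in each library by stage. The median of the gained genes is below that of all genes until 23 dph and above it at 37 dph (23.4 and 18.5 CPM), and the median of the lost genes is above it until 23 dph and below it at 37 dph (8.19 and 9.12 CPM).

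The step from 3 dpf to 15 dph shares no library with the step from 23 to 37 dph. Both were called in one fit of all 8 libraries, so each gene has one estimate of spread for both. Genes with little spread are more readily called in both steps, and all genes tested were not matched for this. The step from 3 dpf to 15 dph also compares whole animals with cut bodies. In that step edgeR called 24.4% of all genes tested higher at 15 dph and 14.3% lower, by the same criterion. Of the 1456 gained genes, 688 (47.3%) were called higher at 15 dph and 212 (14.6%) lower. Of the 828 lost genes, 191 (23.1%) were called higher and 179 (21.6%) lower. With no minimum fold change, 50.6% of the gained genes were higher and 19.8% lower at 15 dph, against 32.03% and 28.6% of all genes tested. For the lost genes these shares were 29.7% and 35.9%. Under both criteria the gained genes held a larger share of early rises, and the lost genes a larger share of early falls, than all genes tested. No test was made of these shares. The median log2 fold change from 3 dpf to 15 dph was 1.01 for gained genes, -0.12 for lost genes and close to 0 for all genes tested. In the step from 15 to 23 dph, which shares the climax libraries, the medians were 0.44 for gained genes, -0.07 for lost genes and again close to 0 for all genes tested.

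The 2 fish of 37 dph differed more than those of 23 dph. Replicates of 37 dph were over 2-fold apart for 114 gained genes (7.83%) and 32 lost genes (3.86%), against 2.77% of all genes tested. Replicates of 23 dph were over 2-fold apart for 15 gained genes (1.03%) and 6 lost genes (0.72%), against 0.48% of all genes tested. Of the 1456 gained genes, 1013 were higher in replicate 1 of 37 dph, with a median log2 ratio of replicate 1 over replicate 2 of 0.25. Such a lean was also present at 3 dpf, where 1031 of them were higher in replicate 1 with a median log2 ratio of 0.22, and at 15 dph, with 894 and 0.08. Of the 828 lost genes, 332 were higher in replicate 1 of 37 dph, with a median log2 ratio of -0.08. They leaned much the same way at 3 dpf, with 345 and -0.07, and at 15 dph, with 278 and -0.09. At 23 dph they did not, with 441 and 0.02. Over all 18987 genes tested, 9584 were higher in replicate 1 of 37 dph. By these medians replicate 1 of 37 dph stood farther from climax than replicate 2 in both groups of genes. A lean between replicates was thus not particular to 37 dph in either group. Its scaling factor from TMM was 0.73, against 0.87 for replicate 2 and 0.94 for each library of 23 dph, and the part of this difference in the result was not tested.

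Nearly all called genes showed no overlap between the stages. The calls were made on these same libraries, so this follows largely from the choice of genes. Both libraries of 37 dph were above both of 23 dph for 1454 of the 1456 gained genes, and below them for 827 of the 828 lost genes. Over all genes tested the 2 libraries of 37 dph were above both others for 33.6% and below both for 34.2%, so the lack of overlap alone does not set the called genes apart. The share of aligned reads that fell at more than 1 position, which were not counted on genes, was 5.29% and 5.42% in replicates 1 and 2 of 23 dph and 6.999% and 6.61% in those of 37 dph. Genes with near-identical copies are undercounted by that step, and its part in the calls was not tested.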

How the data were processed

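Stranded poly(A) libraries were sequenced from 8 turbot, with 2 fish per stage. The authors removed adapters with Trimmomatic, mapped reads with STAR to ASM1334776v1 and counted them with HTSeq-count. The deposited values are raw counts per gene, 1 table per library. The strand setting and annotation release are not given in the sources used here, so overlapping genes may share reads. Summary entries that name no gene, among them reads with no feature (15.3% to 18.9% of aligned entries), were left out. Entries listed as not aligned were 48.7% to 49.3% of all entries of a table, far above the unmapped share that the paper's mapping rates leave, so percentages of aligned entries leave them out. No columns were excluded.

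Groups and replicate numbers come from the sample titles. Genes were filtered with filterByExpr, scaled by TMM and tested with edgeR 4.0.16 (limma 3.58.1, R 4.3.3). One fit held all 8 libraries, with a mean per stage and 4 residual degrees of freedom. On simulated data it recovered 25 of 50 genes changed 2-fold, which is the minimum fold. It recovered 50 of 50 changed 4-fold, with 4 false calls. The simulation gave every stage the same spread, unlike the 10.1% at 23 dph and 19.7% at 37 dph. Its changed genes were drawn only from genes that were not low in counts, and genes of like level had the same spread. Recovery of genes with few counts or with a large spread of their own was therefore not measured. DESeq2 1.42.0 served as an alternative. The SE of a log2 fold change is approximate. It is the size of the change divided by the square root of the F statistic of the quasi-likelihood test. Shares are of the raw gene counts of a library. Log ratios between replicates used CPM plus 0.5. Gained or lost genes were eligible to be named with at least 10 CPM at the higher stage and no overlap between the stages. In each direction the gene with the largest fold change and that with the largest change in share were named. The planned gene lists need names and were not run. The members, lists and tests were chosen with earlier results of these data known. Alternatives covered normalization, filters, minimum fold, test, the libraries fitted, each library left out and the replicate block.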

Additional observations from a re-analysis of the deposited data

How the results depend on the processing

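The named genes kept their direction under every alternative that tested them (ENSSMAG00000008444 was not tested with at least 10 counts in every library), and the ENSSMAG00000008146 call was lost at a log2 fold change of at least 2 (-1.14). Unless a setting admits more or fewer genes by construction, the cause was not tested. Counts that moved by more than their set limit, and shares that moved by more than the SD between replicates, follow. With no minimum fold change 2748 genes were gained and 2399 lost, holding 34.9% of gene counts at 37 dph and 22.7% at 23 dph. At a log2 fold change of at least 2 there were 344 and 65, holding 9.70% and 0.60%. With library totals in place of TMM, added after seeing the data, 943 and 1587 held 16.9% and 17.1%. The 10.2% of the lost genes at 23 dph, whose SD was only 0.013, became 10.4% with upper-quartile normalization, 9.15% with median-ratio size factors, 9.10% with DESeq2, 10.3% with no filter, 8.79% with at least 10 counts in every library, 10.04% with only 4 libraries fitted and 10.3% in voom with a weight for each stage (added after seeing the data). Genes switched on numbered 37 with no filter. Genes switched off numbered 8 with DESeq2, 6 with only 4 libraries fitted, 6 with these and the replicate block (added after seeing the data) and 9 in voom.

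With each library left out in turn, where the lone fish of a stage was assumed to vary like the others, gained genes numbered 922 to 1624 and lost genes 626 to 1098, with shares of 16.5% to 35.0% and 7.80% to 10.3%, and genes switched on 9 to 22 and off 4 to 9. Where a fish of the stage measured was left out, the share is that of the lone fish. The difference in the 20 most abundant genes ranged from 1.64 to 5.85 percentage points.

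The replicate number was also fitted as a block. Same-numbered libraries of 23 and 37 dph did not deviate together (r = -0.0017 across genes). Over the other pairs of stages r ranged from -0.18 (3 dpf with 23 dph) to 0.28 (3 dpf with 37 dph), so the fish were not treated as paired. With the block 1448 genes were gained and 855 lost, the lost holding 10.3% at 23 dph, and 10.4% with the block and only 4 libraries fitted. Of the 828 lost genes, 297 were lower at 15 dph than at 3 dpf with no minimum fold change in that comparison, against 179. Genes under about 1 CPM rest on few counts, which limits the counts of genes switched on or off.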
